A study of Homo sapiens with 9 samples.

Results

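The 41 genes described here encode proteins of the synaptic vesicle, of the release site facing it, and of the adhesion and scaffold layers of the synapse. They were chosen by symbol, as rows of the deposited expression table whose symbol equals a name on the list, and all 41 were found among its 22295 rows. The table comes from U251 cells, an established human glioblastoma line infected with lentivirus in which the splicing regulator PTBP1 was knocked down to turn tumor cells towards a neural state. Each of the 9 RNA-seq libraries was made from total RNA of a whole culture, so fewer cells with a transcript and less of it per cell cannot be told apart.

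There were 3 groups of 3 libraries. The sh-Luci-3d group carried a control short hairpin RNA against luciferase and was harvested 3 days post infection (dpi), and it is called the control. The sh-Ptbp1-3d group carried the hairpin against PTBP1 and was harvested at 3 dpi, and the sh-Ptbp1-7d group carried the same hairpin and was harvested at 7 dpi. In the study's protocol, infected cells were moved to a neuronal induction medium containing forskolin and dorsomorphin. The control libraries are of 3 dpi alone, so for sh-Ptbp1-7d the knockdown, the longer culture and the longer time in that medium cannot be told apart.

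At a chemical synapse, vesicles filled with transmitter dock at the active zone and fuse with the membrane when calcium enters. Fusion is driven by SNARE proteins on the vesicle and the plasma membrane, timed by synaptotagmins and complexins, and followed by retrieval of the vesicle membrane. Neurexins and neuroligins join both sides of the cleft, and scaffolds such as PSD-95 hold receptors in place behind it. Neurons express most of these genes at high levels, while several are also used for secretion and membrane traffic in glia and other cells.

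Levels are given as FPKM, fragments scaled by transcript length and library size, which allows a rough comparison between genes as well as between libraries. Differences were tested with limma on log2(FPKM + 0.1) over the 15551 rows that averaged 0.1 FPKM or more, a filter that 28 of the 41 genes passed. SYN1 (mean 0.11 FPKM) passed it only through its 0.322 FPKM in sh-Ptbp1-3d replicate 3. All counts and medians over the 28 genes include SYN1, also where that library is left out. A call needs a fold change above 2 with a Benjamini-Hochberg false discovery rate (FDR) below 0.01 where the libraries of 7 dpi are compared, and below 0.05 where the knockdown of 3 dpi is set against the control. Fold changes on this scale understate the change of genes with low values. The sources do not say that the libraries of a group came from separate cultures, so p-values measure the spread between these samples, which may be technical. With 3 libraries against 3, an exact two-sided permutation test of a single gene cannot go below 0.1, and none is given.

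PTBP1 stood at 52.7% to 57.3% of its sh-Luci-3d mean in the knockdown libraries of 3 dpi and at 43.0% to 44.1% in those of 7 dpi. PTBP2, its neuronal paralog, was at 6.54 ± 1.68, 17.8 ± 1.34 and 27.1 ± 1.58 FPKM in the control and in the knockdown at 3 and 7 dpi (SD, n = 3 each). One library stood apart. Replicate 3 of sh-Ptbp1-3d held transcripts of neurons that the other 8 libraries lacked or held at lower levels. Of 19 neuron markers in the table, 10 were above 0.3 FPKM and more than 3 times the highest of the other 5 libraries of 3 dpi, and in each of those other libraries 0 markers met this rule. Among all rows above 0.3 FPKM, 0.184% to 0.206% met it in those libraries, and 174 of 13686 (1.27%) in replicate 3. The markers were listed with earlier results of these data known, so these counts describe replicate 3 and are not a test. STMN2, a growth cone protein of neurons, was at 11.5 FPKM and NEUROD6, a transcription factor of cortical neurons, at 6.03 FPKM in this library, and both were listed at 0 in the 8 others. Of the 12 astroglial or glioma markers 1 met the rule in it, FABP7, a fatty acid binding protein of radial glia, at 15 FPKM against at most 2.19 FPKM in the other 8 libraries. Counts of calls that involve sh-Ptbp1-3d are given with and without this library, as are the fold changes of the genes that passed the FDR from 3 to 7 dpi. From 3 to 7 dpi of the knockdown, 4 of the 12 astroglial or glioma markers were called, 2 higher and 2 lower, of 9 tested. Without that library 3 were called, 1 higher and 2 lower. Of all rows tested 14.2% were called, 8.31% higher and 5.9% lower, and without that library 13.6%, 7.68% higher and 5.88% lower. VIM, an intermediate filament gene, fell with a log2 fold change of -1.91 (SE 0.0949, limma adjusted p = 9.79e-08), and SLC1A3, a glutamate transporter of astrocytes, rose with 1.89 (SE 0.177, limma adjusted p = 9.32e-06). The summed level of the list was 4460 to 4880 FPKM in the libraries of 3 dpi and 1390 to 1520 FPKM at 7 dpi, of which VIM alone made up 4090 to 4490 FPKM and 1090 to 1250 FPKM.

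The 41 genes differed widely in level. In the control libraries 24 to 26 of them were above 0.1 FPKM, and 6 (SV2B, SYN3, SNAP91, NRXN2, SHANK1 and SHANK2) were listed at 0 in all 3. Averaged over the 9 libraries, 9 genes were at 10 FPKM or more (VAMP2, SYT11, SV2A, NLGN2, SNAP47, DNM1, DLG4, AMPH and UNC13B), 11 lay between 1 and 10 FPKM, 8 between 0.1 and 1 FPKM and 13 below 0.1 FPKM. In several of the families that hold more than 1 listed paralog, a single member carried most of the level in every library. In the SYN and CPLX families, both at low levels, no single member did so throughout. SV2A held 100% of the summed SV2 level in every library, since SV2B was listed at 0 in all 9. UNC13B held 98.8% to 100% of the UNC13 level, SHANK3 95.3% to 100% of the SHANK level and SYT11 85.6% to 90.8% of the level of the 5 listed synaptotagmins. For UNC13 and SHANK the lowest of these shares was that of sh-Ptbp1-3d replicate 3. The summed level of the 41 genes was 241 to 261 FPKM in the control, 273 to 284 FPKM in the knockdown at 3 dpi and 375 to 395 FPKM at 7 dpi, so the 3 groups did not overlap. The 5 most abundant genes made up 62.5% to 68.5% of these sums, and VAMP2 alone made up 19.9% to 22% of them at 7 dpi.

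**Figure D1:**
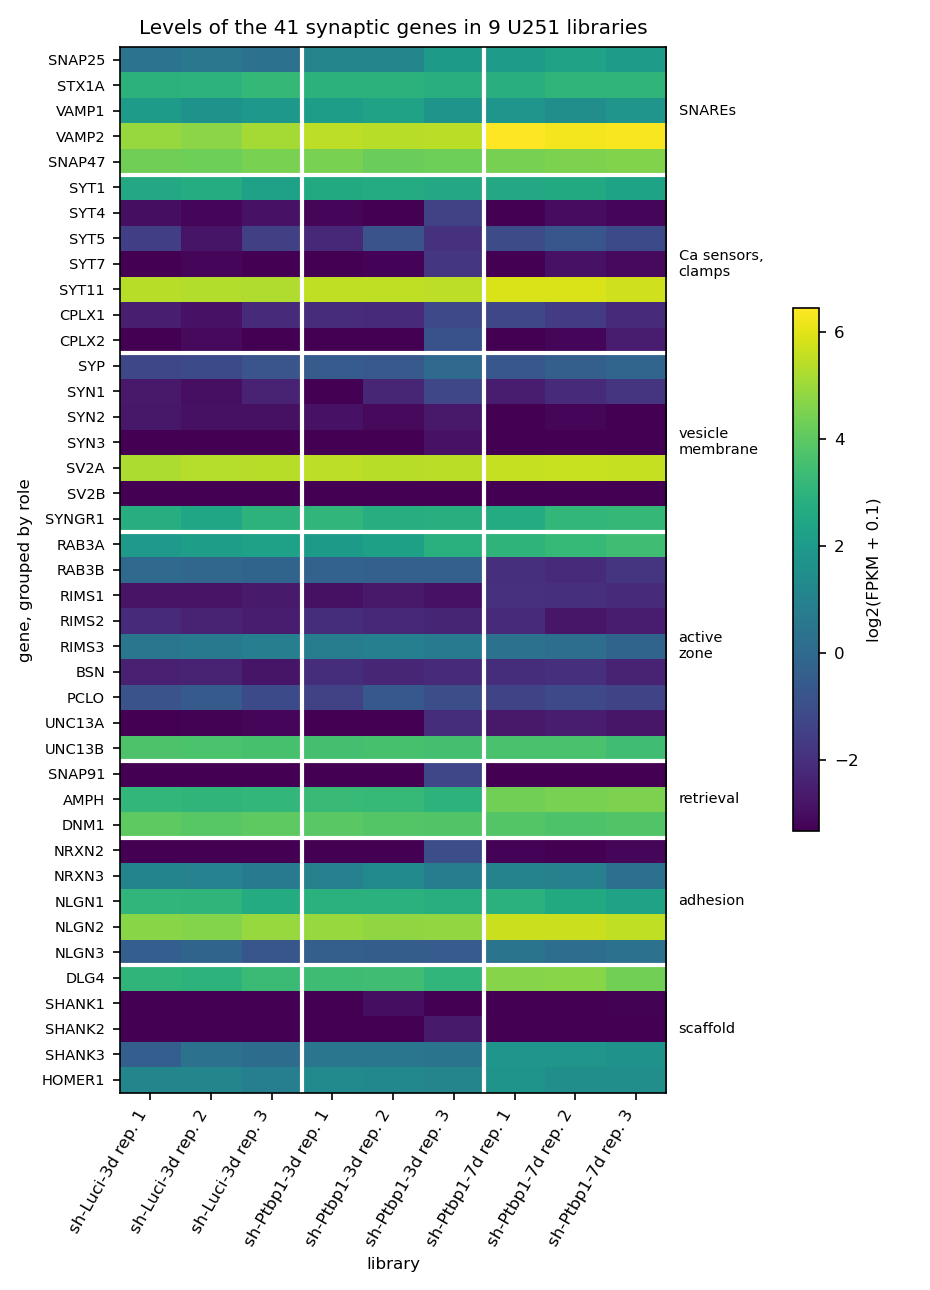
Heat map of log2(FPKM + 0.1) for the 41 genes (rows, grouped by role) in the 9 libraries (columns, 3 per group). The bright rows are the paralogs that U251 cells express, such as VAMP2, SYT11 and SV2A, while CPLX2, SNAP91 and NRXN2 are brighter in sh-Ptbp1-3d replicate 3 than in any other library.

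Between 3 and 7 dpi of the knockdown, the postsynaptic scaffold genes DLG4 and SHANK3 and the endocytic adaptor gene AMPH rose and the vesicle GTPase gene RAB3B fell. These 4 calls, 3 higher and 1 lower, compare with 14.2% of all rows tested being called, of which 8.31% were higher and 5.9% lower. Without sh-Ptbp1-3d replicate 3 the calls numbered 6, 5 higher and 1 lower, with SNAP25 and RAB3A added, against 13.6% of all rows, 7.68% higher and 5.88% lower. By the FDR alone 10 of the genes passed, 8 higher and 2 lower, where 35.8% of all rows passed, 20.3% higher and 15.5% lower. Set against the 28 genes tested, the 4 calls and the 10 genes past the FDR lie near the share of all rows. The 6 of 28 called without sh-Ptbp1-3d replicate 3 are a larger share than the 13.6% of all rows, and this difference was not tested. The median log2 fold change was 0.11 over the 28 genes tested, against 0.092 over all rows, and it was 0.019 over all 41 genes. Without sh-Ptbp1-3d replicate 3 it was 0.15 over the 28 genes, against 0.066 over all rows. In that fit the log2 fold changes of the 4 called genes were 1.14 for DLG4, 1.25 for SHANK3, 1.21 for AMPH and -1.70 for RAB3B, and VAMP2 (0.91), NLGN2 (0.73) and SYT11 (0.34) again passed the FDR below a fold of 2, while RIMS3 (-0.73) and NLGN3 (0.71) did not pass.

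Against the control, 7 genes were called at 7 dpi, where 14.6% of all rows were, 8.93% higher and 5.68% lower. SNAP25, VAMP2, RAB3A, AMPH, DLG4 and SHANK3 were higher and RAB3B was lower, and leaving out sh-Ptbp1-3d replicate 3 left the count at 7, again against 14.6% of all rows. By the FDR alone 12 passed, 11 of them higher, against 35.6% of all rows with 20.6% higher, and 9 passed when that library was left out, against 33.1%. That library belongs to neither group compared here. Leaving it out kept the fold changes and altered only the estimate of the spread and the adjusted p-values. The median log2 fold change was 0.42 over the 28 genes tested, against 0.099 over all rows, and 0.20 over all 41. This comparison and the one from 3 to 7 dpi share their libraries of 7 dpi and are not independent.

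The single contrast made on the same day, sh-Ptbp1-3d against the control, gave 0 calls among the 41 genes with limma, where 0.0129% of all rows were called, and 5 of the 28 tested had an unadjusted p under 0.05, as did 7.24% of all rows. The libraries of both groups did not overlap for 9 of the 28, of which 8 were higher in the knockdown at 3 dpi (SNAP25, VAMP2, SYT11, CPLX1, SYP, SV2A, BSN and SHANK3) and RAB3B was lower. Among all rows tested 10.8% did not overlap, 5.86% higher and 4.93% lower. Without sh-Ptbp1-3d replicate 3, 12 of the genes were higher without overlap and 1 lower, against 13% and 6.85% of all rows, or 19.9% in both directions. The median log2 fold change of the genes tested was 0.16, against 0.01 over all rows, and 0.15 against 0.033 without that library.

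**Figure D2:**
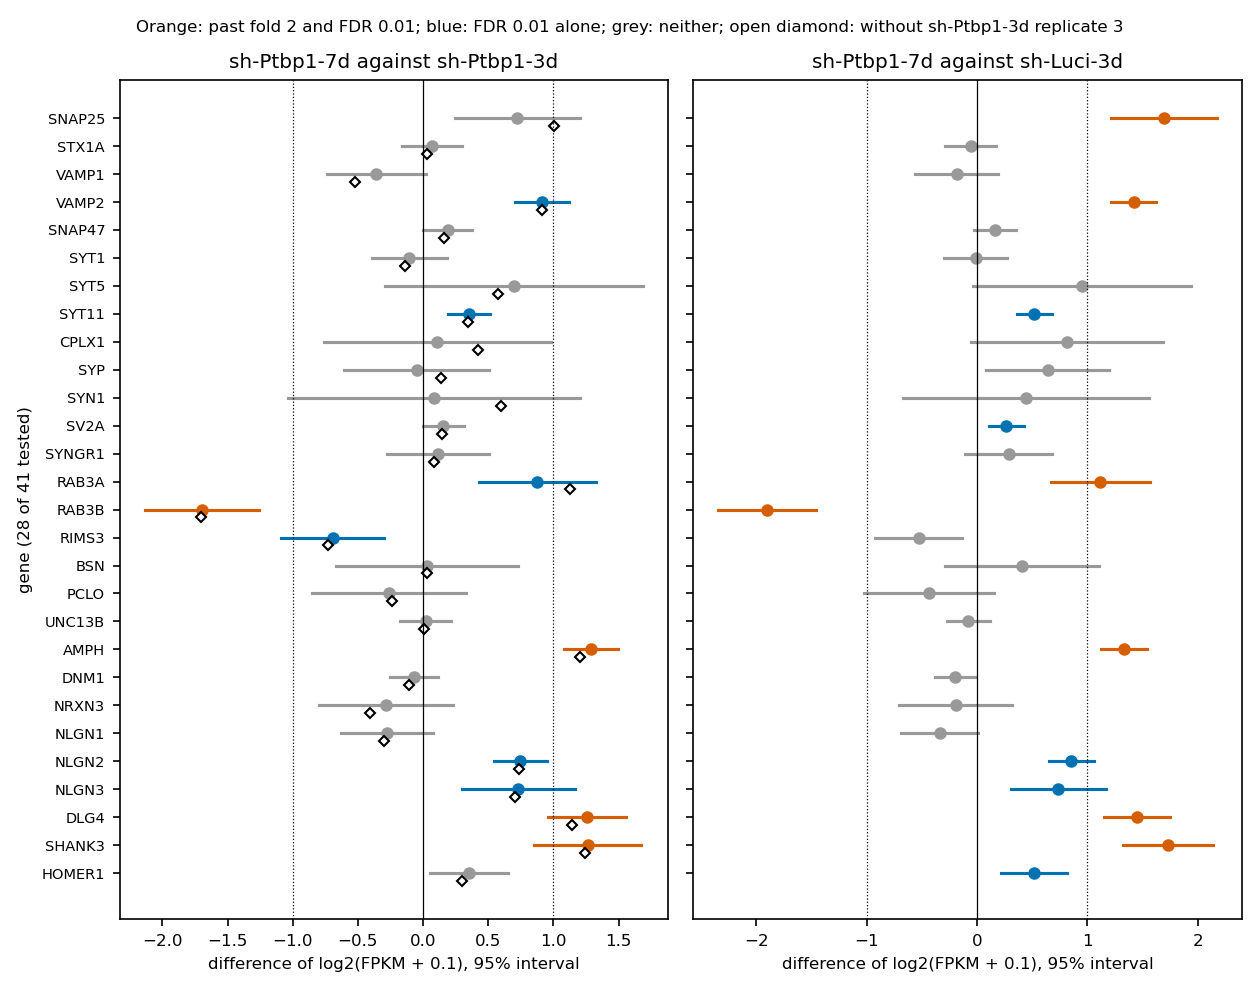
Log2 fold changes of the 28 genes tested with their 95% intervals from limma, for the knockdown at 7 dpi against that at 3 dpi (left) and against the control (right). Orange marks genes past both thresholds and dotted lines a fold of 2; open diamonds, the fit without sh-Ptbp1-3d replicate 3, place SNAP25 at 1.01 and RAB3A at 1.12.

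SNAP25, on chromosome 20 from 10218830 to 10307418 (GRCh38, GENCODE v29), encodes the plasma membrane SNARE of neurotransmitter release. It was at 1.22, 1.42 and 1.17 FPKM in the control libraries, at 2.05, 2.14 and 3.86 FPKM in the knockdown at 3 dpi and at 4.13, 4.84 and 4 FPKM at 7 dpi. All 3 groups were apart, and replicate 3 of sh-Ptbp1-3d lay nearer to the libraries of 7 dpi than to the other 2 of its own group. Against the control, SNAP25 rose at 7 dpi by a log2 fold change of 1.69 (SE 0.218, limma adjusted p = 9.16e-05). Against 3 dpi the value was 0.72 (SE 0.218, limma adjusted p = 0.0177), which does not pass the FDR of 0.01. It passed, with 1.01 (SE 0.151, limma adjusted p = 0.000986), when replicate 3 was left out, and the adjusted p lay between 0.000986 and 0.0736 over the 20 alternatives run. At 3 dpi, the difference from the control was 0.97 (limma adjusted p = 0.36), and 0.69 without replicate 3 (limma adjusted p = 0.599), so neither passed, and the 20 alternatives gave adjusted p-values of 0.06 to 0.759.

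The partner of SNAP25 on the vesicle is VAMP2, also called synaptobrevin 2, on chromosome 17 from 8159149 to 8163546. VAMP2 was at 30.5, 27.0 and 34.4 FPKM in the control, at 44.7, 42.2 and 43.3 FPKM in the knockdown at 3 dpi and at 86.8, 77.4 and 81.1 FPKM at 7 dpi. It was the most abundant of the 41 genes at 7 dpi, the groups did not overlap, and sh-Ptbp1-3d replicate 3 lay between the other 2 libraries of its group. VAMP2 rose by 1.42 on the log2 scale against the control (SE 0.0931, limma adjusted p = 6.72e-07). From 3 to 7 dpi it rose by 0.91 (SE 0.0931, limma adjusted p = 1.74e-05), past the FDR and below a fold of 2. A shorter gene annotated on the same strand, AC129492.3, covers 13.2% of the exon bases of VAMP2, and its mean was 0.714 FPKM.

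The other SNARE genes of the list did not pass. STX1A, the syntaxin that pairs with SNAP25, had means of 8.12 ± 0.764, 7.40 ± 0.326 and 7.79 ± 0.671 FPKM in the control and in the knockdown at 3 and 7 dpi (SD, n = 3 each). SNAP47, a relative of SNAP25 found in many tissues, was at 19 to 23.9 FPKM over the 9 libraries. SNAP25 was 0.0531 to 0.0726 times the level of SNAP47 in the control and 0.167 to 0.211 times it at 7 dpi. VAMP1, the second synaptobrevin, was at 2.75 to 4.90 FPKM, so that VAMP2 held 88.0% to 90.5% of their sum in the control and 96.0% to 96.6% at 7 dpi. Opposite-strand exons of JMJD4 cover 35.3% of the SNAP47 exon bases and those of BUD23 cover 17.9% of STX1A, those of TAPBPL 9.47% of VAMP1, and the sources do not say whether strand was used in counting.

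Among the calcium sensors and fusion clamps, SYT11 was the abundant gene and the one past the FDR. SYT11 encodes a synaptotagmin that does not bind calcium and acts in vesicle trafficking and endocytosis. Its level was 38.8 to 41.5 FPKM in the control, 44.4 to 45.1 FPKM in the knockdown at 3 dpi and 53.0 to 59.8 FPKM at 7 dpi, without overlap. Its rise was small, 0.35 on the log2 scale against 3 dpi (SE 0.0723, limma adjusted p = 0.00223) and 0.52 against the control (SE 0.0723, limma adjusted p = 0.000165). SYT1, the fast calcium sensor of transmitter release, stayed between 4.74 and 6.55 FPKM in all 9 libraries, and its log2 difference from 3 to 7 dpi was -0.11 with a 95% interval from -0.40 to 0.18. The other members of this role were rare. SYT5 did not exceed 0.519 FPKM, CPLX1, a complexin that clamps and primes fusion, did not exceed 0.348 FPKM, and SYT4 and SYT7 had their highest values, 0.28 and 0.19 FPKM, in sh-Ptbp1-3d replicate 3.

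Of the vesicle membrane and vesicle cluster genes, SV2A passed in 1 comparison, and by the FDR alone. SV2A encodes a glycoprotein of the vesicle membrane. It was at 37.4, 40.8 and 42.0 FPKM in the control, at 44.6, 42.3 and 42.6 FPKM in the knockdown at 3 dpi and at 48.0, 48.8 and 47.4 FPKM at 7 dpi. The log2 fold change against the control was 0.26 (SE 0.0709, limma adjusted p = 0.009999), at the edge of the FDR, and without sh-Ptbp1-3d replicate 3 it did not pass (limma adjusted p = 0.0135, with 0.00177 to 0.0955 under all alternatives). The fold change itself stayed at 0.26, since that library belongs to neither group. SYP, synaptophysin, widely used as a marker of synapses, had means of 0.392 ± 0.0908, 0.700 ± 0.194 and 0.667 ± 0.135 FPKM (SD, n = 3 each), and its 0.64 against the control did not pass (SE 0.252, limma adjusted p = 0.0553). SYNGR1, a tetraspanning vesicle protein, was at 5.27 to 9.08 FPKM with overlapping groups. The synapsins, which tether vesicles to each other, were close to absent, with SYN1 at 0.322 FPKM or less, SYN2 at 0.0594 FPKM or less and SYN3 listed at 0 in every library but sh-Ptbp1-3d replicate 3, where it was at 0.0395 FPKM.

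At the active zone, the paralogs RAB3A and RAB3B moved in opposite directions. Both encode small GTPases of secretory vesicles, and RAB3A is the main one of brain synapses. RAB3A was at 3.83, 4.28 and 4.72 FPKM in the control, at 3.88, 4.62 and 7.15 FPKM in the knockdown at 3 dpi and at 8.03, 9.32 and 10.9 FPKM at 7 dpi. All libraries of 7 dpi were above the rest, and replicate 3 was the highest of sh-Ptbp1-3d, apart from the other 2. RAB3A rose by 1.11 on the log2 scale against the control (SE 0.202, limma adjusted p = 0.000965). Against 3 dpi the value was 0.88 (SE 0.202, limma adjusted p = 0.00434), past the FDR and below a fold of 2, and it became 1.12 without replicate 3 (SE 0.159, limma adjusted p = 0.00072, with 0.000671 to 0.0275 under all alternatives). The call against the control was lost with a pseudocount of 1 and after quantile normalization, where the value fell below a fold of 2, and without the filter, where the adjusted p was 0.0105.

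RAB3B was at 0.909, 0.828 and 0.787 FPKM in the control, at 0.739, 0.697 and 0.705 FPKM in the knockdown at 3 dpi and at 0.149, 0.132 and 0.174 FPKM at 7 dpi. It was low throughout, with every library of 7 dpi below the 6 others. Its log2 fold change was -1.70 against 3 dpi (SE 0.199, limma adjusted p = 4.77e-05) and -1.90 against the control (SE 0.199, limma adjusted p = 2.03e-05). With a pseudocount of 1 these values were -0.57 and -0.68, below a fold of 2, and both calls ended. The ratio of RAB3A to RAB3B was 4.22 to 6 in the control, 5.25, 6.63 and 10.1 in the knockdown at 3 dpi and 54.0 to 70.5 at 7 dpi. Exons of MPV17L2 on the other strand cover 9.08% of the RAB3A exon bases.

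Promoter sequence is shown for these paralogs and for SHANK3, the called genes for which at least 150 bases of the RefSeq window lay before the first annotated base of the gene and outside the exons of others. Of the 41 genes 33 matched an entry of the RefSeq promoter table (GRCh38.p14), while SNAP25, SYT7, CPLX1, SYN3, RIMS2, NRXN2, SHANK1 and SHANK2 did not. Forskolin raises cyclic AMP, and the factor CREB binds a cyclic AMP response element whose half-site reads TGACG, or CGTCA on the other strand. Searched on both strands in the 250 bases before each start, the half-site was found for 11 of the 33 genes. These genes had 56 windows in the table, as some have several starts. Of all 35116 windows, each counted singly, 21.2% held the half-site. A second motif, CAGCACC, the left core of the RE1 element, was searched in the same way. It was found for 7 of the 33 genes and in 6.16% of all windows. A gene with several windows has more chances of a match, so neither count of genes can be compared with its share. Capitals mark the half-site in the sequences, each read 5′ to 3′ on the strand of its gene.
RAB3A, chr19:18204075-18204292, minus strand: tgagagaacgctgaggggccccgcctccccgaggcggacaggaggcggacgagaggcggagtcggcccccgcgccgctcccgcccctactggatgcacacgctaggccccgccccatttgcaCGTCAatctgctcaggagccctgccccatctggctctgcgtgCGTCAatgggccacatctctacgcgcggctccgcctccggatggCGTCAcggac
RAB3B, chr1:51990765-51990950, minus strand: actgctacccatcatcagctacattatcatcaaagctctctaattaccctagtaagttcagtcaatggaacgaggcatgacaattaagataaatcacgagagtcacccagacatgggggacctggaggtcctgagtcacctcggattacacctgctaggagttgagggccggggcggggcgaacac
SHANK3, chr22:50672573-50672822, plus strand: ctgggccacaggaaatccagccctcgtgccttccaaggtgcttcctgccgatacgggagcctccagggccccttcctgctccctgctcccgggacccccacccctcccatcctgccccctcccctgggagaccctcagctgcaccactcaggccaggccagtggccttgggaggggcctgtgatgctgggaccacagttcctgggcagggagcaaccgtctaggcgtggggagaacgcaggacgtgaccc
The printed stretches of RAB3A, RAB3B and SHANK3 are 218, 186 and 250 bases long, with GC contents of 70.6%, 50.5% and 68.4%. That of RAB3A held 3 half-sites, beginning 128, 86 and 42 bases before the RefSeq start, and those of RAB3B and SHANK3 held 0. For RAB3A and RAB3B the bases nearest the RefSeq start were cut and are not part of these counts. In the full windows, 3 of the 6 called genes with an entry held the half-site. A match is a description of letters and does not show that a factor binds there.

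The other active zone genes held no call. RIMS3, a small RIM protein that binds release site components, was at 1.34 to 1.69 FPKM in the control, 1.58 to 1.77 FPKM in the knockdown at 3 dpi and 0.783 to 1.19 FPKM at 7 dpi. It fell from 3 to 7 dpi past the FDR, with a log2 fold change of -0.69 (SE 0.178, limma adjusted p = 0.00804), and it did not pass without replicate 3 (-0.73, limma adjusted p = 0.02, with 0.00107 to 0.0322 under all alternatives). RIMS1, a larger RIM that recruits calcium channels, was below the filter, and its 0.128 to 0.163 FPKM at 7 dpi lay above the 0.0370 to 0.0620 FPKM of the other 6 libraries. UNC13B, a Munc13 protein that primes vesicles, did not pass, at 10.8 to 13.0 FPKM with a log2 fold change of 0.019 from 3 to 7 dpi (95% interval -0.18 to 0.21). The giant scaffolds BSN and PCLO did not exceed 0.158 and 0.581 FPKM, RIMS2 did not exceed 0.141 FPKM and UNC13A was at 0.144 FPKM or less, with its highest value in sh-Ptbp1-3d replicate 3.

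Of the 3 genes for vesicle retrieval, AMPH rose. It encodes amphiphysin, a membrane-bending adaptor of clathrin-mediated endocytosis, on chromosome 7 from 38383704 to 38631567. AMPH was at 8.79, 8.31 and 8.68 FPKM in the control, at 9.63, 9.11 and 7.87 FPKM in the knockdown at 3 dpi and at 20.5, 22 and 22.8 FPKM at 7 dpi. The day 3 groups were not apart because of sh-Ptbp1-3d replicate 3 alone, as the others of its group were above every control library. The libraries of 7 dpi stood well above both groups, with a log2 fold change of 1.29 against 3 dpi (SE 0.0951, limma adjusted p = 1.64e-06) and 1.33 against the control (SE 0.0951, limma adjusted p = 1.31e-06). DNM1, the dynamin that cuts endocytic vesicles from the membrane and a binding partner of amphiphysin, was at 13.2 to 16.3 FPKM and did not pass, with -0.067 (95% interval -0.25 to 0.12) from 3 to 7 dpi.

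Adhesion across the cleft was represented mainly by NLGN2, the neuroligin of inhibitory synapses. NLGN2 was at 25.8, 24.8 and 30.4 FPKM in the control, at 30.7, 27.9 and 28.6 FPKM in the knockdown at 3 dpi and at 50.9, 49.9 and 45.5 FPKM at 7 dpi. It rose past the FDR and below a fold of 2, by 0.74 on the log2 scale against 3 dpi (SE 0.0923, limma adjusted p = 7.09e-05) and by 0.85 against the control (SE 0.0923, limma adjusted p = 2.62e-05). NLGN3, a neuroligin found at several synapse types, rose by 0.73 from 3 to 7 dpi from a mean of 0.646 ± 0.028 to 1.14 ± 0.121 FPKM (SD, n = 3 each, SE 0.195, limma adjusted p = 0.00954). Against the control it also rose by 0.73 (SE 0.195, limma adjusted p = 0.00936). Without sh-Ptbp1-3d replicate 3 neither difference passed, with limma adjusted p-values of 0.0272 and 0.0127, where all alternatives together ran from 0.00346 to 0.0451 and from 0.00336 to 0.0597. The difference from the control does not contain that library, so there only the estimate of the spread and the adjusted p changed. NLGN1, the neuroligin of excitatory synapses, had means of 7.68 ± 1.23, 7.29 ± 0.240 and 6.08 ± 1.26 FPKM in the 3 groups (SD, n = 3 each) and did not pass. The share of NLGN2 in the summed level of these 3 neuroligins was 73.2% to 81.8% in the control and 85.5% to 88.3% at 7 dpi. NRXN3, a neurexin on the presynaptic side, was at 1.07 to 2.42 FPKM with overlapping groups.

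The postsynaptic scaffold held 2 of the called genes. DLG4 encodes PSD-95, the main scaffold of excitatory synapses, on chromosome 17 from 7187169 to 7219841. It was at 8.32, 7.84 and 9.88 FPKM in the control, at 10.6, 10.8 and 8.4 FPKM in the knockdown at 3 dpi and at 25.1, 26 and 20.4 FPKM at 7 dpi. The day 3 groups overlapped through sh-Ptbp1-3d replicate 3 alone, as the others of its group were above every control library. All libraries of 7 dpi were above those of day 3, with a log2 fold change of 1.25 against 3 dpi (SE 0.135, limma adjusted p = 2.57e-05) and 1.45 against the control (SE 0.135, limma adjusted p = 9.03e-06). Exons of ACADVL on the other strand, at a mean of 156 FPKM, cover 0.824% of the DLG4 exon bases.

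SHANK3, on chromosome 22 from 50674415 to 50733298, encodes a scaffold that lies deeper in the postsynaptic density and reaches the actin cytoskeleton. It was at 0.656, 1.14 and 0.993 FPKM in the control, at 1.31, 1.31 and 1.26 FPKM in the knockdown at 3 dpi and at 3.36, 3.32 and 3.04 FPKM at 7 dpi. The 3 groups did not overlap. SHANK3 rose by 1.26 on the log2 scale against 3 dpi (SE 0.185, limma adjusted p = 0.000237) and by 1.73 against the control (SE 0.185, limma adjusted p = 2.42e-05). The call against 3 dpi ended with a pseudocount of 1, where the value was 0.89. HOMER1, whose protein links SHANK to glutamate receptors, was at 1.76 to 2.14 FPKM in the control and 2.72 to 3.20 FPKM at 7 dpi. It passed the FDR against the control (0.51, SE 0.135, limma adjusted p = 0.00914), without a fold of 2, and not against 3 dpi (0.35, limma adjusted p = 0.0508). Leaving out sh-Ptbp1-3d replicate 3 ended the first of these as well (limma adjusted p = 0.0132, with 0.00535 to 0.0412 under all alternatives). That library belongs to neither group of the first comparison, so its fold change stayed and only the estimate of the spread and the adjusted p changed. SHANK1 and SHANK2 did not exceed 0.0269 and 0.0620 FPKM.

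**Figure D3:**
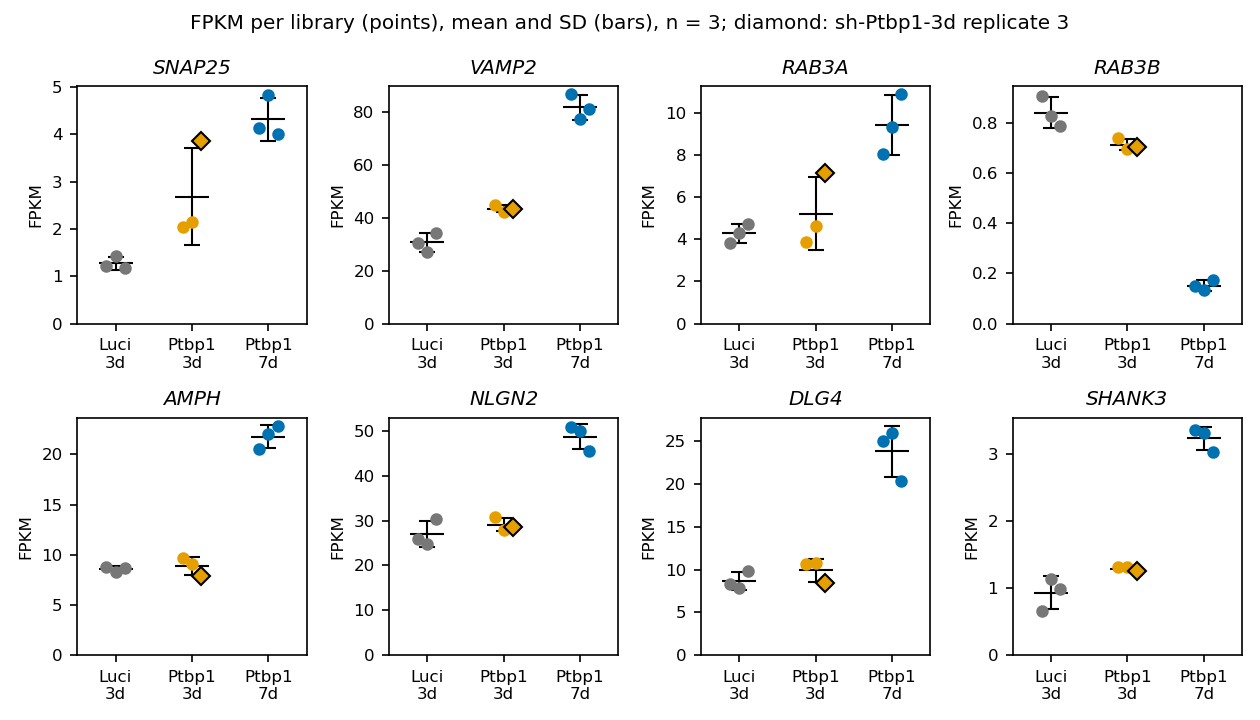
FPKM of 8 genes in each library (points, linear axes from 0), with the mean and SD of each group of 3; the diamond is sh-Ptbp1-3d replicate 3. The diamond lies near the sh-Ptbp1-7d points for SNAP25 (3.86 FPKM) and above the rest of its group for RAB3A (7.15 FPKM). It lies below the rest of its group for AMPH (7.87 FPKM) and DLG4 (8.4 FPKM), and within or close to it for VAMP2, RAB3B, NLGN2 and SHANK3.

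A few genes were seen almost exclusively in sh-Ptbp1-3d replicate 3. Of the 29 genes above 0.3 FPKM in it, 3 (10.3%) were more than 3 times the highest of the other day 3 libraries, against 174 of 13686 rows (1.27%), and in each of those other libraries 0 genes of the list met the same rule. The 3 genes were counted among the 29 through their levels in this library alone. It was also known beforehand to hold transcripts of neurons, so these shares describe it and are not a test. CPLX2, the second complexin, was at 0.447 FPKM in this library, at 0.0191 FPKM in replicate 2 of the control, at 0.00928 and 0.0673 FPKM in replicates 2 and 3 of 7 dpi, and listed at 0 in the other 5. SNAP91, which encodes the clathrin adaptor AP180, was at 0.325 FPKM in it and listed at 0 in the 8 others. NRXN2, a neurexin, was at 0.404 FPKM in it, at 0.00803 and 0.0117 FPKM in replicates 1 and 3 of 7 dpi, and listed at 0 in the other 6.

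These are genes of neuronal synapses, and in the same library 10 of the 19 neuron markers met the rule. The summed level of the neuron markers was 258 FPKM there and 220 to 236 FPKM in the other day 3 libraries, nearly all of it NEFL, a neurofilament gene at 205 to 219 FPKM over the day 3 libraries. With a ratio of 2 in place of 3, 5 of the genes stood out, and with a minimum of 0.1 FPKM 6 did, both settings chosen after seeing the data. Of the 10 markers that met the rule, STMN2, NEUROD6, INA and SLA were listed at 0 in the libraries of 7 dpi, GAP43 was at 0.0882 to 0.334 FPKM, TBR1 at 0.0316 to 0.107 FPKM and CELF3 at 0.0226 to 0.0329 FPKM, and DCX, NEUROD2 and ELAVL4 did not exceed 0.00584, 0.0206 and 0.0136 FPKM. The part of these transcripts in the levels of the synaptic genes was not tested. NEFL fell from 3 to 7 dpi, with a log2 fold change of -1.22 (SE 0.0731, limma adjusted p = 3.65e-07), and 3 of the 20 listed neuron markers were called, all lower, of 14 tested, where 14.2% of all rows were called and 5.9% lower. Without that library the count was 3 as well, all lower, where 13.6% of all rows were called and 5.88% lower. The median log2 fold change of the markers tested went from -1.25 to -0.0060. Both fits kept the rows that passed the filter with that library included. STMN2, NEUROD6, INA and SLA, at 0 in every other library, passed it through that library alone. The number of markers tested and both medians therefore depend on it.

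**Figure D4:**
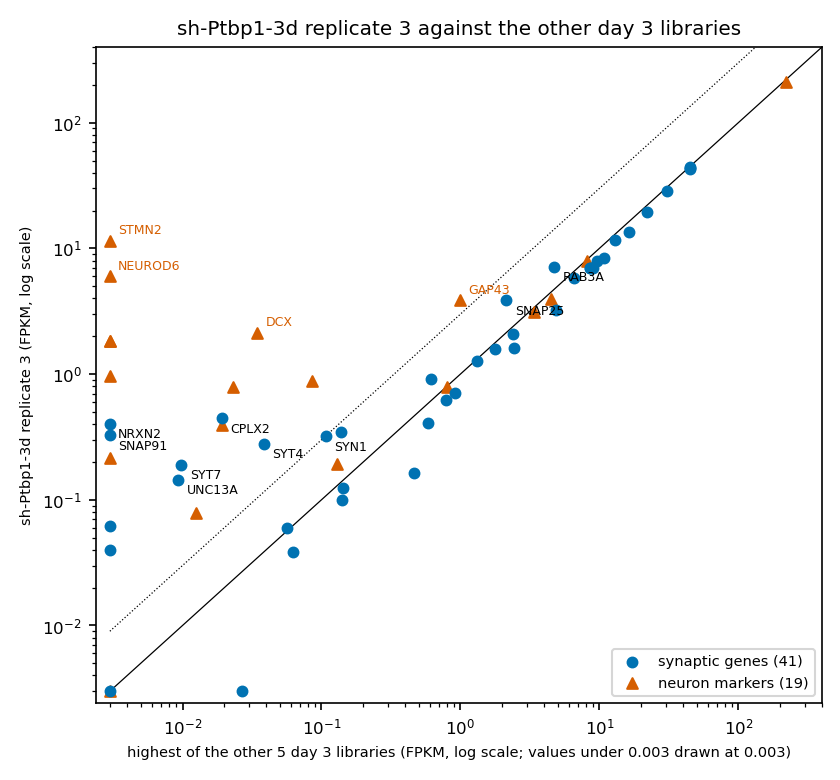
Level in sh-Ptbp1-3d replicate 3 (vertical) against the highest of the other 5 libraries of 3 dpi (horizontal), both in FPKM on log scales, for the 41 synaptic genes (circles) and 19 neuron markers (triangles); the solid line marks equal levels and the dotted line a ratio of 3. Most synaptic genes lie near the solid line, while CPLX2, SNAP91 and NRXN2 lie with markers such as STMN2 and NEUROD6 far above it.

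Other genes of the synapse, on lists that share no gene with the 41, were counted in the same way for the knockdown at 7 against 3 dpi, where 14.2% of all rows tested were called, 8.31% higher and 5.9% lower. Of 40 further genes of the release machinery 25 were tested and 6 called, all higher, with PPFIA2, a liprin of the active zone, at a log2 fold change of 2.46 (SE 0.15, limma adjusted p = 4.08e-07) and SYT12, a synaptotagmin, at 1.71 (SE 0.167, limma adjusted p = 1.29e-05). Of 21 further vesicle membrane proteins and transporters 12 were tested and 3 called, 1 higher (SYNGR3, 1.05) and 2 lower (among them VAT1, -1.22). Of 21 further genes of vesicle retrieval, all tested, 1 was called, DNM3, a dynamin, which fell with a value of -1.30. Of 21 SNAREs of general membrane traffic 20 were tested and 0 called with limma, and 14 of them had an unadjusted p under 0.05, as did 56.3% of all rows. Of 34 further adhesion and scaffold genes 21 were tested and 5 called, 3 higher and 2 lower, among them SYNPO, an actin-binding protein of dendritic spines, with -2.30 (SE 0.118, limma adjusted p = 1.3e-07), and BAIAP2, a scaffold that binds actin regulators, with -1.21 (SE 0.123, limma adjusted p = 1.64e-05). Without sh-Ptbp1-3d replicate 3, where 13.6% of all rows were called, 7.68% higher and 5.88% lower, the counts of the 5 lists were again 6, 3, 1, 0 and 5. In the list of retrieval genes DNM3 was then not called, and ITSN1 (-1.02), an endocytic scaffold named here after its values were seen, was. The median log2 fold changes of these 5 lists were -0.010, -0.26, -0.44, -0.046 and 0.17, beside 0.11 for the 28 tested genes of the list described here.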

How the data were processed

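Gene expression was measured by RNA-seq in 9 libraries of U251 cells, 3 for the control (sh-Luci-3d) and 3 each for the knockdown at 3 dpi (sh-Ptbp1-3d) and at 7 dpi (sh-Ptbp1-7d), grouped by their labels. The authors deposited FPKM values, 1 column per library, for 19932 genes named by symbol and 2363 assembled loci without one. The submitters' processing notes name HISAT2 and GRCh38, and the quantification program and its annotation are not given in the sources used here. A second deposited file gives the positions of the assembled loci, and both ends of 49.6% of its 43315 exons match GENCODE v29, which was used for gene positions (41 of 41 genes found). The FPKM sums were 367412 to 404922 per library. FPKM values do not come in whole-read steps, so the depth behind a level is unknown and no counting interval is given.

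Values were tested with limma 3.58.1 (R 4.3.3) on log2(FPKM + 0.1), with 1 term per group, all 9 libraries in a single fit, an intensity trend and Benjamini-Hochberg adjustment over the 15551 rows with a mean of at least 0.1 FPKM. The procedure was tested on simulated data. The fit was repeated without sh-Ptbp1-3d replicate 3 and under 20 alternatives (pseudocount, filter, scaling, replicate block, each library left out). The fit without sh-Ptbp1-3d replicate 3 kept the rows that passed the filter with it included. The genes, gene lists and tests were chosen with earlier results of these data known. Genes past the FDR with a fold above 2 in any comparison, with or without sh-Ptbp1-3d replicate 3, SNAP25, and genes above 0.3 FPKM in sh-Ptbp1-3d replicate 3 at over 3 times the other day 3 libraries are given library by library, and genes past the FDR with their standard error (SE). For every other list, the 2 called genes with the largest change and a mean of at least 1 FPKM are named. The marker lists for oligodendrocytes (0 of 7 tested) and for blood and immune cells (1 of 8 tested, 0 called) summed to 0.0695 to 0.285 FPKM and 9.72 to 17.9 FPKM per library. Promoter sequences are from RefSeq (GRCh38.p14). Figures were drawn with matplotlib 3.10.9 (Python 3.11.15).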

Additional observations from a re-analysis of the deposited data

How the results depend on the processing

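No called value changed sign under the alternatives run. From 3 to 7 dpi of the knockdown, the 4 called genes became 2 with a pseudocount of 1. RAB3B (-0.57) and SHANK3 (0.89) then fell below a fold of 2. Over all 15551 rows tested, the calls went from 2211 to 1255 with that setting. By the FDR alone 10 of the genes passed, where 35.8% of all rows did. Leaving out a library gave 4 to 6, the 6 without sh-Ptbp1-3d replicate 3, where 2109 of all rows were called. With TPM in place of FPKM, VAMP2 reached 1.01 and was called. Against the control the 7 calls became 12 by the FDR alone, where 35.6% of all rows passed. They were 7 without any 1 library, where 2081 to 2272 of all rows were called. With a pseudocount of 1 they became 5, without RAB3A (0.98) and RAB3B (-0.68), while the calls over all rows went from 2271 to 1269. RAB3A was also lost with quantile normalization (0.99) or no filter. At 3 dpi against the control the count was 0 throughout.

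The median log2 fold change of the genes from 3 to 7 dpi, 0.11, was 0.019 without the filter, 0.17 with a mean of at least 1 FPKM, 0.24 with TPM, 0.038 after median-ratio scaling and -0.019 after quantile normalization, and 0.077 to 0.19 without 1 library, the highest without sh-Ptbp1-7d replicate 1. No direction is given for it. Over all rows the median was 0.092, and 0.20 with TPM, 0.010 with median ratios and -0.0070 with quantiles. Against the control the median of 0.42 was 0.21 with a pseudocount of 1, 0.53 with 0.01, 0.20 without the filter, 0.27 with a mean of at least 1 FPKM, 0.60 with TPM and 0.27 after quantile normalization, and 0.37 to 0.45 without 1 library. At 3 dpi against the control it was 0.10 with a pseudocount of 1, and 0.12 to 0.16 without 1 library. The cause was not tested.

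No pairing by replicate number was visible in the values, as correlations of same-numbered deviations lay between -0.0317 and 0.0512. These correlations cannot show whether same-numbered libraries shared a culture or a batch. With the replicate block the counts of calls were 4, 7 and 0, as without it, and the medians 0.11, 0.42 and 0.16. Over all rows 2140, 2217 and 0 were called with the block.

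Depth is unknown, and genes with a mean below 0.1 FPKM were not tested. Genes with overlapping exons can share reads.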
